A study of Homo sapiens with 6 samples.

Results

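The bins described here are 100 Kb windows of the autosomes in which the hormone-starved T47D library lay in one chromatin compartment and all 4 libraries of the estradiol (E2) course lay in the other. They were selected on measured values: the sign of the first eigenvector score of a bin in T0 had to differ from the sign shared by T1, T4, T16 and T24. Of 28823 autosomal bins, 26484 had a score in all 6 libraries, and 376 of these met the rule, or 1.42% (95% Wilson interval 1.28 to 1.57%). In 208 of them T0 was in compartment A and the E2 libraries were in B (A→B bins, 0.785% of scored bins), and in 168 T0 was in B and the E2 libraries were in A (B→A bins, 0.634%). These shares are also the background, because the rule used this contrast, and nothing is read from them.

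T47D is a breast cancer line that expresses the estrogen receptor, and tethered chromatin conformation capture (TCC) with the enzyme HindIII was used to map its chromosome contacts. Cells were kept without hormone for 72 h and collected before E2 (T0) or 1, 4, 16 and 24 h after 100 nM E2 (T1, T4, T16 and T24). Tamoxifen-resistant T47D cells (TamR) form the sixth condition; the labels call them untreated, and the methods describe culture in charcoal-stripped serum with 100 nM tamoxifen. There is 1 library per condition, so differences between conditions carry no replicate check or p-value; sequencing depth is unknown from these files, and an effect of hormone starvation and a property of the single T0 library cannot be told apart. No expression was measured here, so the cell line could not be checked by its marker genes.

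Compartment A holds mostly open, transcribed, gene-rich and early-replicating chromatin, and compartment B holds mostly closed, gene-poor chromatin that often lies at the nuclear lamina. The first eigenvector of the contact map separates them, with positive scores for A and negative scores for B, and a score near 0 marks a bin whose contacts are shared between both. Estradiol activates the estrogen receptor, which binds DNA at the palindromic estrogen response element (ERE) or near partner factors such as FOXA1, and tamoxifen competes with estradiol for the receptor.

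The full ERE palindrome GGTCANNNTGACC occurred 12 times among the A→B bins and 15 times among the B→A bins, in genome build hg19. It was searched as these letters, which read the same way on both strands. That is 5.77 and 8.93 matches per 100 bins, against 7.71 per 100 over all scored bins, where 7.26% of bins held at least 1 match. The matches in the longest runs and the strongest bins are shown because they are the receptor's own motif in these regions, and the capitals mark the palindrome. A match is a description of the sequence and not a binding site. The A→B bins held these:
chr1:189689030-189689058: tcattggaGGTCATTGTGACCtgaatgat
chr13:85474522-85474550: ccctctttGGTCAATTTGACCttctttct
chr7:80285060-80285088: gagttcaaGGTCAGCCTGACCaatatggt
The first is intergenic, the second lies in an uncharacterised transcript and the third lies within CD36, a fatty acid transporter. The B→A bins held these:
chr10:31323854-31323882: tttaaggtGGTCATCATGACCcagtaagt
chr12:120079159-120079187: tccacgttGGTCAACTTGACCaaaacctc
The first of these lies in an uncharacterised transcript in the bin where ZNF438 starts, and the second lies in TMEM233, a membrane protein gene.

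The bins of both directions also held promoters of very different make-up, shown here for genes in the bins farthest from 0, with CpG dinucleotides in capitals. Each window spans 250 bases before to 50 bases after the annotated gene start. In A→B bins, DNAJC12, a co-chaperone gene, had 1 CpG and a GC content of 36.3%, and TBC1D23, a gene of endosome-to-Golgi transport, had 23 CpGs and 61.7% GC:
DNAJC12, chr10:69597897-69598196, minus strand: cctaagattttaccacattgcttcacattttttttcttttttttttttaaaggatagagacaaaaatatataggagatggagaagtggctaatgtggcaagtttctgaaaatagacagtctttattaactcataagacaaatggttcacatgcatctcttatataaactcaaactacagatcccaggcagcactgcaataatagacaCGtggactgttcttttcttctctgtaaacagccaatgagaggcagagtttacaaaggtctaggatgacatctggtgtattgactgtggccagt
TBC1D23, chr3:99979586-99979885, plus strand: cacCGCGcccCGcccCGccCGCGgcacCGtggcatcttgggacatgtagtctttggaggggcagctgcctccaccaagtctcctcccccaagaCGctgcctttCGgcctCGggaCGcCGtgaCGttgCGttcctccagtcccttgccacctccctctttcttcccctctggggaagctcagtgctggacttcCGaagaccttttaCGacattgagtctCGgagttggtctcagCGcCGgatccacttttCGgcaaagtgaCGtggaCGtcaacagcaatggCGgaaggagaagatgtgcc
In B→A bins, OR3A1, an olfactory receptor gene, had 6 CpGs and 50% GC, and ZNF423, a zinc finger transcription factor gene, had 26 CpGs and 68.3% GC:
OR3A1, chr17:3201605-3201904, minus strand: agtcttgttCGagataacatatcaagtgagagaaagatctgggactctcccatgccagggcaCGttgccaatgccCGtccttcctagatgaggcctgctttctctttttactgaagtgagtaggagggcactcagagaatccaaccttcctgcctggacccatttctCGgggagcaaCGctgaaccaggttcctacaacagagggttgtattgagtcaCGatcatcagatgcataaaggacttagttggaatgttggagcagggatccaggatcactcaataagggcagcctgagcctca
ZNF423, chr16:49891781-49892080, minus strand: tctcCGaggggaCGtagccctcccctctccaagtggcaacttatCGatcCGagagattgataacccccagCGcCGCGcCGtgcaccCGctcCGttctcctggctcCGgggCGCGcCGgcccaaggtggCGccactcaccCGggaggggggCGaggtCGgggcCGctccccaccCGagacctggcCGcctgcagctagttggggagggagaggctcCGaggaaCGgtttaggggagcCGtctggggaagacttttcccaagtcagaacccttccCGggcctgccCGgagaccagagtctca
A CpG-rich promoter was defined by a GC content over 50% and an observed to expected CpG ratio over 0.6. By that definition 71 of 111 protein-coding promoters in A→B bins were CpG-rich, or 64.0% (Wilson interval 54.7 to 72.3%). In B→A bins it was 44 of 98, or 44.9% (35.4 to 54.8%), below the 55.8% of all promoters in scored bins. Bins at a T0 compartment border gave 59.7% where T0 was in A and 50.6% where T0 was in B. Genes of one cluster share a bin, so the promoters are not separate observations and these intervals understate the uncertainty.

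Scores are given multiplied by 1000 throughout, and 0 is the border between A and B. In the A→B bins the T0 score ranged from 0.00528 to 1.59 with a median of 0.247. The medians in T1, T4, T16 and T24 were -0.59, -0.39, -0.66 and -1.20. In the B→A bins the T0 score ranged from -1.34 to -0.00535 with a median of -0.34. The E2 medians were 0.505, 0.730, 0.844 and 0.815. The median absolute T0 score over all scored bins was 4.93, so the selected bins lay close to the border in T0. An absolute T0 score under 1 was found in 202 of 208 A→B and 157 of 168 B→A bins, against 10.5% of all scored bins. T24 lay farthest from T0 at the median among A→B bins and T4 nearest, while T1 lay nearest among B→A bins.

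**Figure D1:**
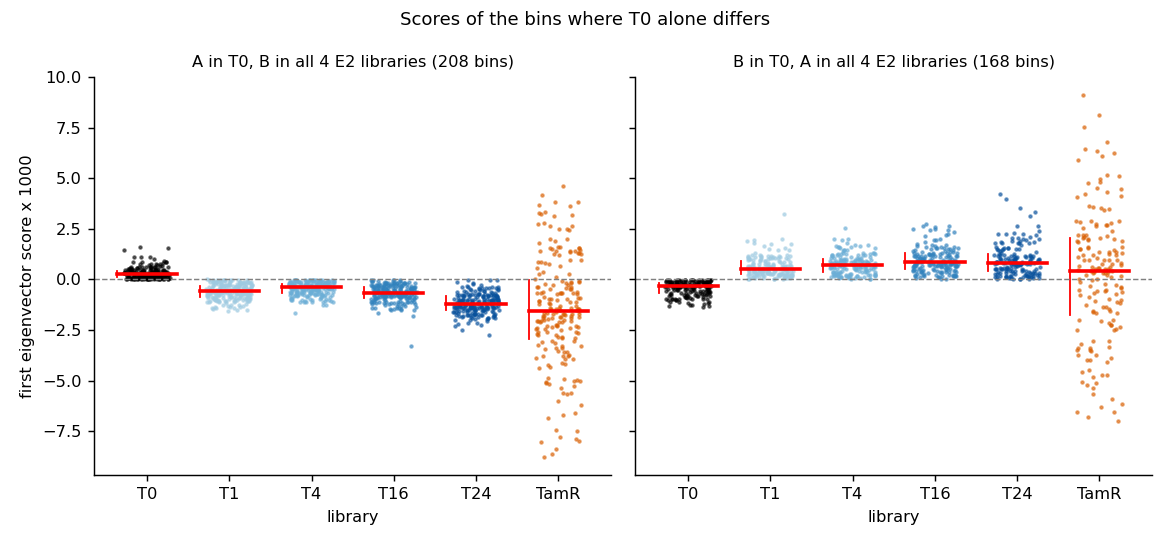
First eigenvector score (y axis, multiplied by 1000) of each bin by library (x axis), for the 208 A→B bins (left) and the 168 B→A bins (right), with the median as a red bar and the quartiles as a thin red line. The 5 parental libraries keep close to 0, with medians from -1.20 to 0.844, while TamR spreads from -8.77 to 9.12.

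The step from T0 to the mean of the E2 libraries had a median absolute size of 1.01 in A→B and 1.11 in B→A bins, against 0.422 in all scored bins. The median SD among the 4 E2 libraries, which are different time points and no replicates, was 0.402 and 0.370, close to the 0.397 of all scored bins. The gap from T0 to the nearest E2 score exceeded the whole range of the E2 scores in 66 A→B bins (31.7%) and 79 B→A bins (47%). Over all scored bins that share was 9.68%. Because the rule asked for this separation, these values are descriptions.

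The smallest absolute score among the 5 parental libraries tells how near a bin came to losing its place in the rule. Its median was 0.116 in A→B and 0.162 in B→A bins. It exceeded 0.25 in 50 and 56 bins, and 0.5 in 3 and 23 bins. T0 was the library nearest 0 in 97 A→B and 77 B→A bins. Just inside the rule, the A→B bin chr5:101400001-101500000 had a T0 score of 0.00528 and a TamR score of -4.86. Just outside it, chr8:300001-400000 had a T0 score of -0.00197 with the same sign in all 4 E2 libraries. For B→A, chr2:215400001-215500000 lay just inside at -0.00535 in T0, and chr12:114400001-114500000 lay just outside at 0.00109. In a further 154 bins that were A in T0, 3 of the 4 E2 libraries were in B, and in 91 of these T4 was the library that stayed with T0. In 153 bins that were B in T0, 3 of the 4 E2 libraries were in A, and in 90 of these T24 stayed with T0.

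Most bins stood alone or in pairs. The 208 A→B bins formed 173 runs of adjacent bins, of which 146 had 1 bin, 19 had 2 and 8 had 3. The 168 B→A bins formed 129 runs, of which 100 had 1 bin, 22 had 2, 4 had 3 and 3 had 4. A T0 compartment border touched 85.1% of A→B and 82.7% of B→A bins, against 9.45% of all scored bins. Conversely, 14.4% of T0 border bins in A and 10.9% of those in B were among the selected bins. Of all bins with an absolute T0 score under 1, a T0 border touched 811 of 1362 in A and 775 of 1423 in B. Nearly all selected bins had such T0 scores, so the 9.45% of all scored bins is not a like comparison. Of the 376 bins, 6 lay beside an unscored bin or a chromosome end, or 1.60%, against 1.39% of scored bins.

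The runs took 3 positions in the T0 compartments. In 139 of the 302 runs (46.0%) the run was a whole T0 compartment, 79 A and 60 B, which had no counterpart in any E2 library. In 144 runs, 80 A→B and 64 B→A, the run was the end of a longer T0 compartment, whose median length was 7 bins. The other 19 runs, 14 A→B and 5 B→A, lay inside a T0 compartment, with bins of the same T0 sign on both sides. Whether the E2 libraries split these compartments or lost more of them was not tested. T0 had 1605 compartments over the scored autosomal bins, more than the 1273 to 1364 of the E2 libraries. Of the T0 compartments, 8.66% were found in T0 alone among the parental libraries, against 5.66% for T24 and 1.17 to 2.81% for T1, T4 and T16. Single-bin compartments made up 105 of the 139, out of 359 single-bin compartments in T0. The part of the larger number of compartments in T0 in this result was not tested.

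The same rule applied to each of the other parental libraries gave 55 bins for T1 alone, 90 for T4 alone, 115 for T16 alone and 532 for T24 alone. T24 exceeded T0, and its bins were mostly in B (428 of 532). The whole T24 track lay lower: 44.8% of scored bins were in A, against 46.9 to 47.7% in the other parental libraries. Its median score over all scored bins was -0.94, against -0.59 to -0.44 in the others. The part of this shift in the T24 counts and in the T24 scores of the selected bins was not tested. T0 alone had 208 in A and 168 in B. Which direction was the larger depended on T24: without it in the rule there were 216 A→B and 258 B→A bins, while without T4 there were 299 and 187.

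The score profile across the runs showed where the difference lay. At the 79 A→B runs that were whole T0 compartments, the mean T0 score in the run was 0.270 ± 0.0286 (SE, n = 102 bins). It was -0.94 ± 0.112 (n = 77) in the bin before and -0.89 ± 0.0917 (n = 78) in the bin after. The E2 libraries showed a lower maximum at the same place, with means from -1.30 in T24 to -0.51 in T4. The 60 B→A runs of this kind were the mirror image, with a T0 mean of -0.41 ± 0.0385 (n = 78 bins) between flanks of 0.967 and 0.878, while the E2 means ran from 0.726 to 1.13. The T0 sign in the run and beside it was fixed by the choice of these runs. In the E2 libraries the mean in the run was also nearer to 0 than the means of the adjacent bins. Over all scored bins the median absolute step from T0 to the E2 mean was 0.422, against a median absolute T0 score of 4.93. The E2 tracks thus follow T0 over most of the genome, and their shape at these runs is not independent of the choice on T0.

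**Figure D2:**
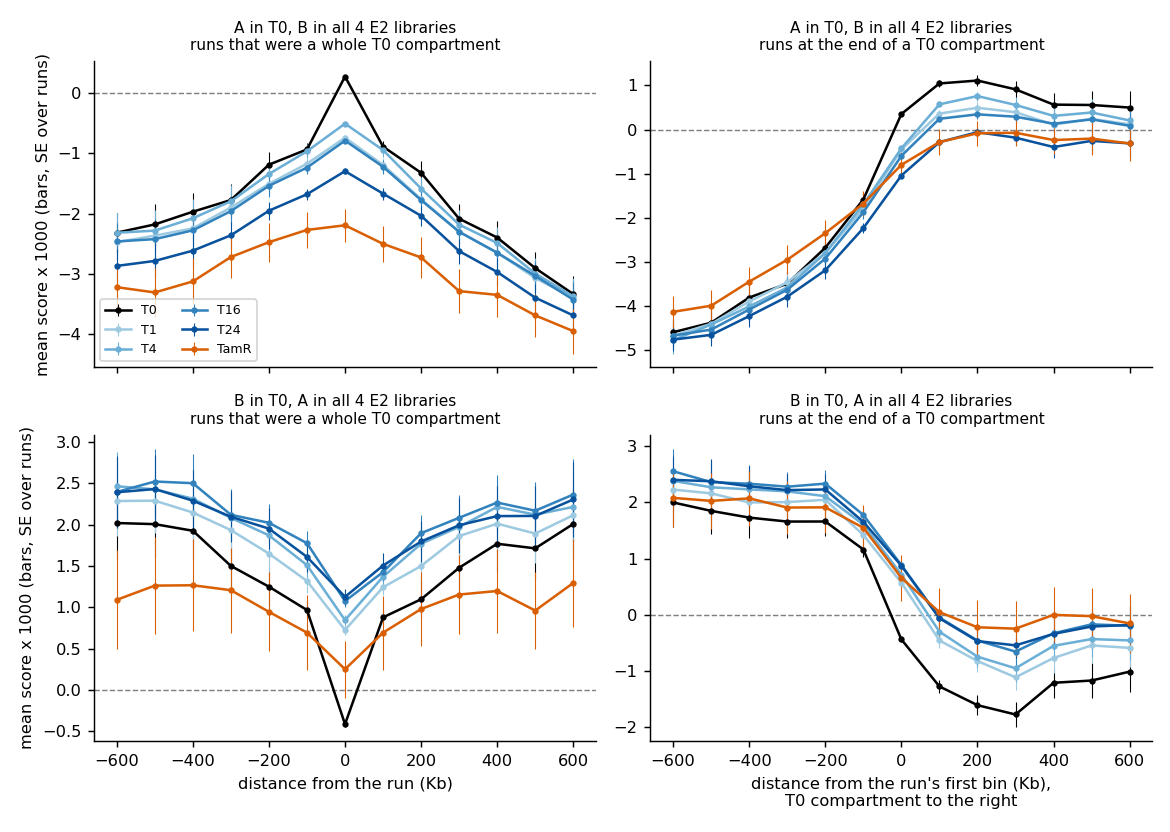
Mean score (y axis, multiplied by 1000) by distance from the run (x axis, Kb) for A→B runs (top) and B→A runs (bottom) that were a whole T0 compartment (left) or its end (right), 1 line per library, bars for the SE over runs, or over bins at distance 0 on the left. T0 crosses 0 at the run on the left, with a mean of 0.270 in A→B and -0.41 in B→A bins, and on the right, 100 Kb inward from the border bin, T0 averages 1.05 in A→B and -1.28 in B→A runs, while farther inward many T0 compartments have ended.

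The step was also present in the bins beside the runs. At the A→B runs that ended a T0 compartment, the next bin inside the compartment had a median step of 0.771 from the E2 mean towards A (T0 higher in 95% of 80 bins). The bin on the outer side had a median step of 0.268 towards A (68.4% of 79 bins). At the B→A ends the step towards B was 0.920 inside (96.9% of 64 bins) and 0.424 outside (76.6% of 64 bins). Beside runs that were whole T0 compartments the outer bins stepped by 0.404 towards A (76.1% of 155 bins) and by 0.506 towards B (78.0% of 118 bins). Inner bins share the T0 sign of the run, and over all second bins from a T0 border the step was 0.323 towards A for those in A and 0.175 towards B for those in B. Outer bins have the other T0 sign, and over all T0 border bins of that sign the step went the other way, at -0.19 towards A for bins in B and -0.36 towards B for bins in A. These flanking bins are the bins at which a run stops, so their signs were not free. An inner bin did not meet the rule, so its E2 libraries were not all on the other side from T0. The score of a 100 Kb bin is also not independent of its neighbour's. One bin inward from the border bin, which in longer runs is still part of the run, the mean at the 80 A→B ends was 1.05 ± 0.0720 in T0 and -0.28 ± 0.0881 in T24, with T1, T4 and T16 between 0.246 and 0.573. At the 64 B→A ends it was -1.28 ± 0.123 in T0 and between -0.46 and -0.05 in the E2 libraries.

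Some A→B bins kept clear of 0 in all 5 parental libraries. On chromosome 10, the bin from 69500001 to 69600000 holds the starts of DNAJC12 and CTNNA3, an alpha-catenin gene of cell junctions. It had 0.695 in T0, -1.0 in T1, -1.02 in T4, -1.41 in T16, -1.57 in T24 and -1.71 in TamR. It was the edge bin of an A compartment of 76 bins. On chromosome 3, the bin from 99900001 to 100000000 holds the start of TBC1D23. Its scores were 0.555 in T0, -0.63 in T1, -0.61 in T4, -1.16 in T16, -1.80 in T24 and -0.72 in TamR. On chromosome 5, the bin from 153500001 to 153600000 holds the start of GALNT10, an enzyme that starts mucin-type glycosylation. It had 0.488 in T0, -0.83 in T1, -1.03 in T4, -0.53 in T16, -1.76 in T24 and -2.84 in TamR. On chromosome 13, the bin from 85400001 to 85500000, an A compartment of 1 bin with no protein-coding start, had 0.474 in T0, -1.03 to -2.08 in the E2 libraries and -6.21 in TamR. In all 4 bins T0 was the only library of the 6 in A.

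The longest A→B runs had 3 bins each. Of the 6 named by the rule, 4 were whole T0 compartments without a protein-coding gene start. One of them, on chromosome 3 from 106000001 to 106300000, averaged 0.351 in T0, between -1.52 and -0.54 in the E2 libraries and -2.77 in TamR. A run that spans 80100001 to 80400000 on chromosome 7 ended an A compartment of 8 bins and holds the start of GNAT3, a taste receptor G protein subunit. It averaged 0.445 in T0, -0.77 in T1, -0.37 in T4, -0.80 in T16, -1.30 in T24 and -1.07 in TamR. Among these 6 runs, all bins were in B in TamR in 5, and in that of chromosome 8 from 58500001 to 58800000 none was (mean 1.51 in TamR).

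The strongest B→A bins lay farther from 0. On chromosome 17, the bin from 3200001 to 3300000 holds the starts of the olfactory receptor genes OR3A1 and OR3A2 and of OR1R1P, annotated as protein-coding. It had -1.09 in T0, 1.73 in T1, 0.901 in T4, 2.26 in T16, 4.24 in T24 and 7.53 in TamR. On chromosome 16, the bin from 49800001 to 49900000 with the start of ZNF423 had -0.97 in T0, 0.850 in T1, 0.718 in T4, 1.15 in T16, 1.55 in T24 and 0.642 in TamR. On chromosome 12, the bin from 120000001 to 120100000 with the start of TMEM233 had -1.0 in T0, 1.29 in T1, 0.803 in T4, 0.709 in T16, 2.63 in T24 and 0.826 in TamR. In these 3 bins TamR was in A with the E2 libraries. The B→A bin that kept farthest from 0 in the parental libraries, on chromosome 12 from 8500001 to 8600000, had no protein-coding start and went the other way: -0.90 in T0, 1.53 to 2.32 in the E2 libraries and -1.35 in TamR.

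Among the longest B→A runs, the 3 of 4 bins all ended B compartments of 8 to 10 bins. On chromosome 2, the bin from 178200001 holds the starts of NFE2L2, the transcription factor of the oxidative stress response, and AGPS, an enzyme of ether lipid synthesis. It had -0.02 in T0, 1.79 in T1, 1.61 in T4, 2.5 in T16, 1.17 in T24 and -3.06 in TamR. Further along the same run, the bin with TTC30B and TTC30A, genes of ciliary transport, had -0.59 in T0, 0.857 to 1.55 in the E2 libraries and -4.74 in TamR. TamR was in B well beyond this run. At a distance of -600 Kb from its first bin, the scores were 2.30 in T0, 2.76 to 3.37 in the E2 libraries and -4.26 in TamR. The NFE2L2 start used here is the outermost annotated one. On chromosome 1, the run from 181200001 to 181600000, with the start of the calcium channel gene CACNA1E, averaged -0.63 in T0, 0.584 to 0.664 in the E2 libraries and 0.810 in TamR. On chromosome 10, the run from 31000001 to 31400000, with ZNF438, averaged -0.54 in T0, 0.243 in T1, 0.532 in T4, 0.722 in T16, 1.37 in T24 and 1.37 in TamR.

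On chromosome 14, the 3 bins from 22100001 to 22400000 were a whole B compartment in T0, and the first holds the starts of the olfactory receptor genes OR10G2, OR4E2 and OR4E1. That bin had -0.43 in T0, 1.5 in T1, 1.96 in T4, 1.52 in T16, 1.5 in T24 and 4.08 in TamR. On chromosome 1, the 3 bins from 234000001 to 234300000, where SLC35F3 starts, averaged -0.45 in T0, 0.979 to 1.97 in the E2 libraries and -3.33 in TamR. That of 98100001 to 98400000 on chromosome 12 averaged -1.0 in T0, 0.518 to 1.46 in the E2 libraries and -5.21 in TamR. TamR thus lay past the E2 libraries at some of these loci and far past T0 at others.

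**Figure D3:**
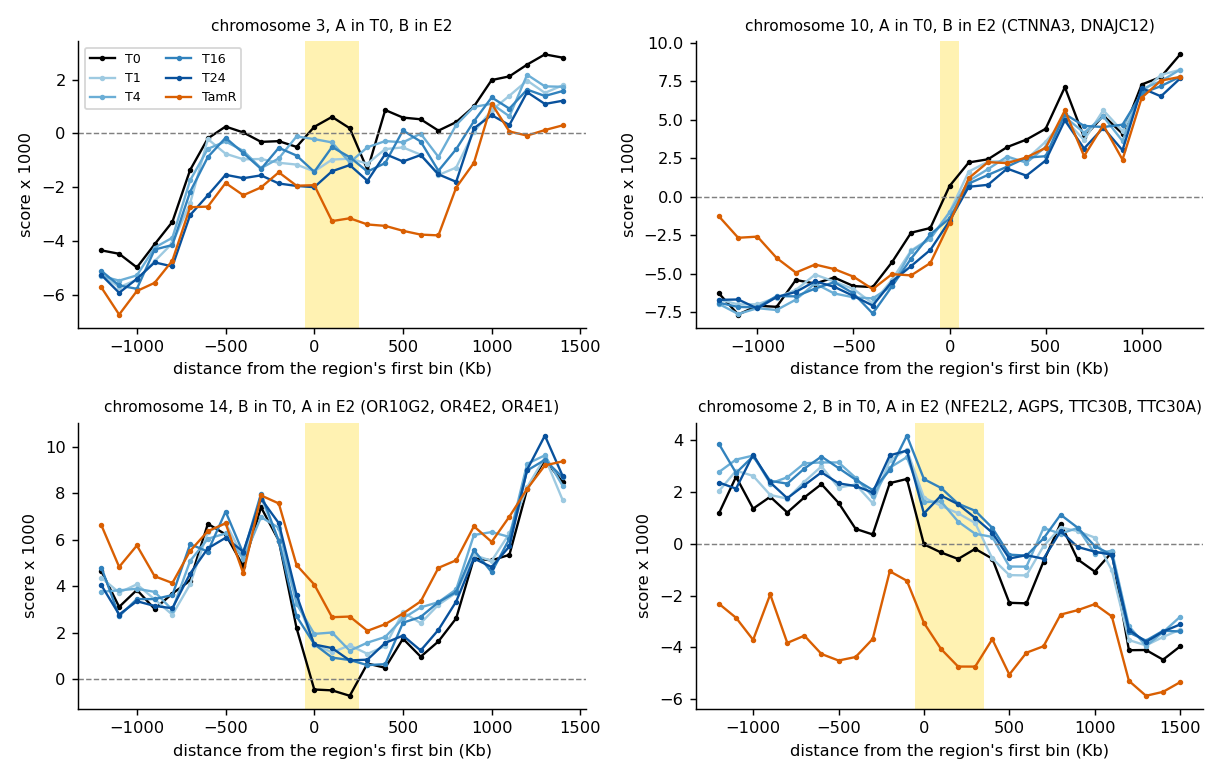
Scores (y axis, multiplied by 1000) of the 6 libraries by distance from the first bin of 4 regions (x axis, Kb), with the selected bins shaded. T0 is the only parental library on its side of 0 in each shaded stretch, and there TamR lies with the E2 libraries on chromosomes 3, 10 and 14. On chromosome 2 TamR lies at -3.06 or below in the bins with named genes. It is below 0 across the whole chromosome 2 window, also where all parental libraries are above 0.

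Beyond the need for a score in each bin, TamR took no part in the choice of bins. It was in B in 156 of the 208 A→B bins, or 75% (Wilson interval 68.7 to 80.4%), with a median score of -1.54. It was in A in 96 of the 168 B→A bins, or 57.1% (49.6 to 64.4%), with a median of 0.416. Of all scored bins in A in T0, 13.2% were in B in TamR, and of all those in B in T0, 14.3% were in A in TamR. Both the E2 course and TamR are compared with the same T0 library here, so a T0 score displaced on its own would set a bin apart from both, and the shares are descriptions. Neighbouring bins are also linked, so the true uncertainty is wider than the intervals.

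The shares were also high among all bins near 0. Of the bins with an absolute T0 score under 1, TamR was on the other side in 52.8% of those in A in T0 and 37.6% of those in B in T0. Within these bins the share rose with the number of E2 libraries on the other side of 0 from T0. For bins in A in T0 it was 41.1% with 0 such libraries, 50.7% with 1, 58.1% with 2, 65.3% with 3 and 75.2% with all 4. For bins in B in T0 it was 27.3%, 45.2%, 47.5%, 55.7% and 57.3%. The last 3 of these differed by less than their Wilson intervals, which run from 39.5 to 64.8%.

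**Figure D4:**
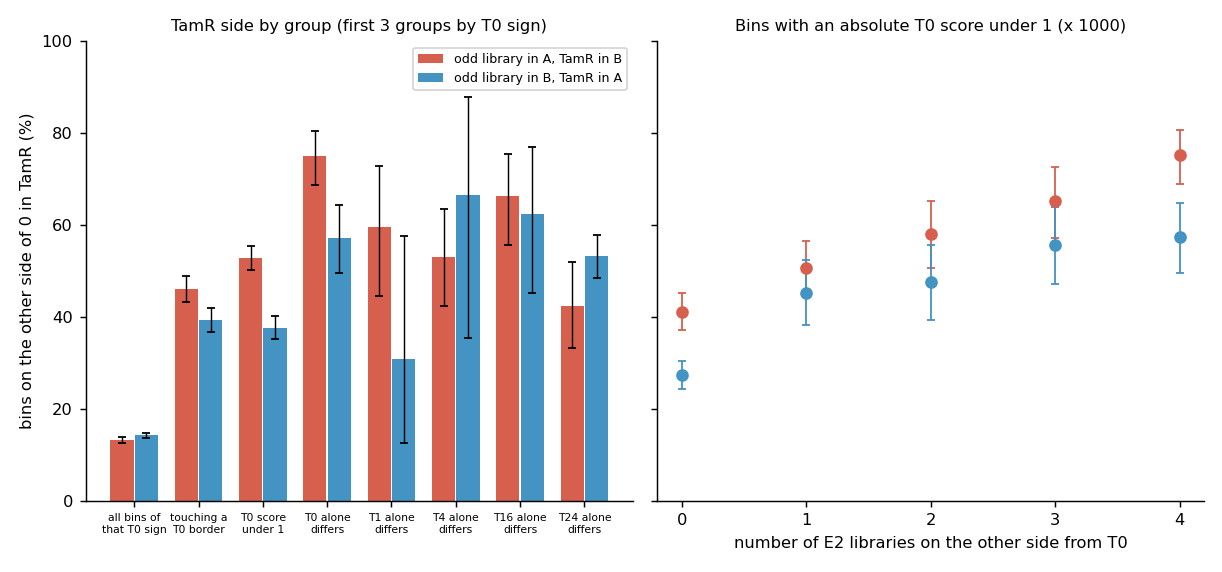
Share of bins (y axis, %) on the other side of 0 in TamR, with 95% Wilson intervals, by group of bins (left, bars) and, for bins with an absolute T0 score under 1, by the number of E2 libraries on the other side from T0 (right), red for bins in A and blue for bins in B in the library that differs. The share is 75% and 57.1% where T0 alone differs, against 13.2% and 14.3% of all bins, and it was 42.3 to 66.3% for bins in A where another single parental library differs.

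The bins in which another parental library alone differed gave shares from 30.8 to 66.7%. Where that library was in A, TamR was in B in 59.5% of 42 bins for T1, 53.1% of 81 for T4, 66.3% of 83 for T16 and 42.3% of 104 for T24. The T0 value of 75% was the highest of the 5. Its interval overlapped those of T1 and T16 and lay above those of T4 and T24. Where that library was in B, TamR was in A in 30.8% of 13 bins for T1, 66.7% of 9 for T4, 62.5% of 32 for T16 and 53.3% of 428 for T24, with intervals that all overlapped that of T0.

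Within the A→B bins, TamR was in B in 82.4% of bins in whole T0 compartments, 67.0% of those at compartment ends and 73.3% of the 15 interior bins. Within the B→A bins it was in A in 59.0%, 57.6% and 20.0% (1 of 5). The share hardly followed the smallest parental score, with 75.6%, 76.5% and 72.0% of A→B bins at under 0.1, 0.1 to 0.25 and above. For B→A bins these shares were 63.6%, 50.9% and 57.1%. The absolute TamR score exceeded 2 in 103 A→B bins, 84 of them in B, and in 85 B→A bins, 44 of them in A. Its median was 1.983 in A→B and 2.004 in B→A bins, against 4.869 over all scored bins. At T0 borders this median was 1.782 for bins in A and 2.002 for bins in B. The TamR score lay beyond all 4 E2 scores in 110 A→B bins (52.9%) and 61 B→A bins (36.3%). It lay beyond T0 on the T0 side in 48 A→B and 68 B→A bins.

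Where TamR was on the other side from T0, each selected bin was given the length of the stretch of such bins around it. A stretch cannot be longer than its T0 compartment, and 102 A→B and 78 B→A bins were in whole T0 compartments of at most 3 bins. Short stretches are thus partly set by the choice, and all bins of the same change are not a like comparison. The median of this length over bins was 2 in both directions. It was 5 over all bins that were A in T0 and B in TamR and 7 for the reverse. Stretches of at least 5 bins held 19.2% of the 156 A→B bins, against 52.1% of all such bins. For B→A it was 22.9% of 96 bins against 66.6%.

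The 2 directions differed in base composition and place. The median GC content was 38.5% (95% order-statistic interval 37.9 to 39.0%) in A→B and 41.5% (40.8 to 42.1%) in B→A bins, against 39.9% over all scored bins. At T0 borders it was 40.6% for A and 40.2% for B. With all scored bins cut into 5 equal classes from the lowest to the highest GC content, the A→B bins numbered 51, 61, 57, 34 and 5, and the B→A bins 11, 23, 44, 60 and 30. Over all 26484 scored bins, the T0 score minus the mean of the E2 scores correlated with GC content at r = -0.15, and T0 minus each E2 library gave -0.12 for T1, -0.03 for T4, -0.12 for T16 and -0.21 for T24. These are correlations over bins that share libraries and neighbours. T0 minus TamR gave -0.01. Sites of HindIII, the enzyme used to cut the chromatin, had a median of 31 per bin in A→B bins, and of 29 both in B→A bins and over all scored bins.

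**Figure D5:**
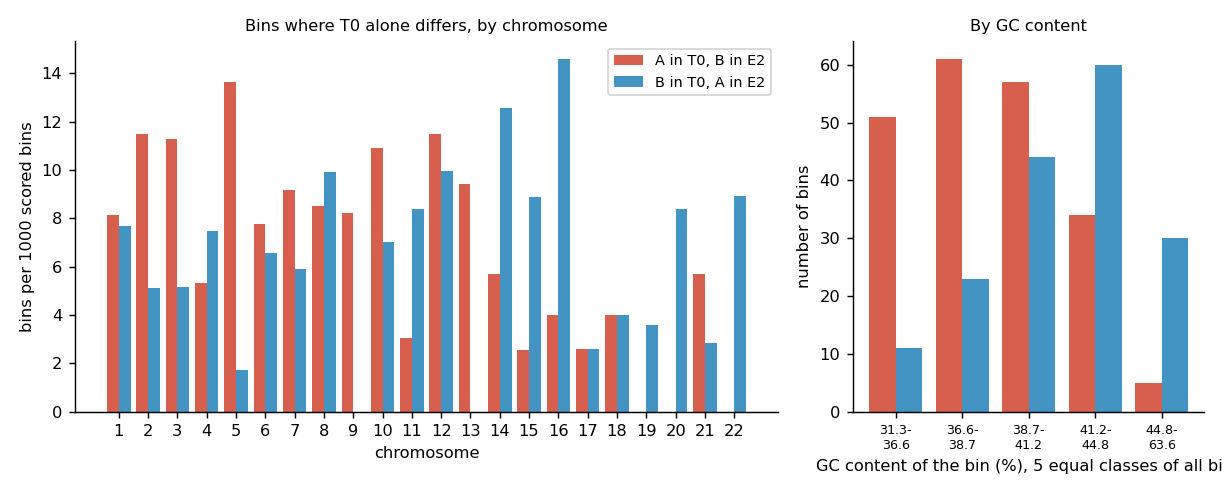
Selected bins per 1000 scored bins by chromosome (left, y axis) and number of selected bins in 5 equal classes of GC content (right, y axis; x axis, GC content in %), red for A→B and blue for B→A. The A→B bins are most dense on chromosome 5 and number 5 in the highest GC class, and the B→A bins are most dense on chromosome 16 and number 11 in the lowest.

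Across chromosomes the share of selected bins ran from 0.359% on chromosome 19 (2 of 557 bins) to 2.15% on chromosome 12 (28 of 1305). Chromosome 5 had 24 A→B and 3 B→A bins, and chromosomes 9 and 13 had 9 A→B bins each and 0 B→A bins. Chromosome 16 had the reverse, with 3 A→B and 11 B→A bins. Chromosomes 19, 20 and 22, which are rich in GC, had 0 A→B bins and 2, 5 and 3 B→A bins. Their few bins limit what the counts can show.

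Protein-coding gene starts were fewer than in scored bins at large. There were 53.4 protein-coding starts per 100 A→B bins (111 genes) and 58.3 per 100 B→A bins (98 genes), against 71.2 per 100 scored bins. At T0 borders the figures were 85.5 for A and 62.9 for B, and in bins with an absolute T0 score under 1 they were 63.1 for A and 53.9 for B. The B→A bins thus held more starts per bin than bins near 0 on the same T0 side, although a smaller share of them held any. With genes of every type there were 188 starts per 100 A→B bins and 223 per 100 B→A bins, against 224 per 100 scored bins. A protein-coding start was found in 36.5% of A→B and 32.7% of B→A bins, against 38.1% of scored bins. In bins with an absolute T0 score under 1 it was 41.4% for A and 36.1% for B. The B→A genes were the more clustered, with 36 of 98 genes in 9 bins of at least 3 genes, against 27 of 111 in 8 bins.

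Of 315 genes on lists drawn up for estrogen biology, 1 started in a selected bin. None of 125 estrogen response genes did, nor any of 46 nuclear receptors, 29 estrogen receptor coregulators, 17 luminal lineage factors, 30 chromatin architecture genes and 45 growth factor and kinase genes. Among 35 genes of the G1 and S phases 1 did, MCM3, a subunit of the replicative helicase, in a B→A bin. It had -0.74 in T0, 0.0590 in T1, 0.0466 in T4, 0.174 in T16, 0.859 in T24 and 1.26 in TamR. In all, 1 of 315 listed genes (0.317%) compared with 1.11% of the 18862 protein-coding genes in scored bins. At that share few listed genes would fall in a selected bin, so these counts do not show a depletion.

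Several gene families were named after their genes had been seen, and their members share bins. Of 387 olfactory receptor genes in scored bins, 7 started in B→A bins and 0 in A→B bins, or 1.81%, and they shared 3 bins. The pseudogene-named OR1R1P was not counted among them. Of 498 ZNF zinc finger genes, 1 started in an A→B bin and 4 in B→A bins, or 1.00%. The share over all protein-coding genes in scored bins was 1.11%. The bin of OR4F6 and OR4F15 at the end of chromosome 15 had -0.33 in T0, 0.153 to 1.21 in the E2 libraries and 3.46 in TamR. On chromosome 1, LCE3A to LCE3E, 5 of 19 late cornified envelope genes, shared 1 B→A bin, and SPRR1A, SPRR3, SPRR4 and SPRR5, 4 of 11 small proline-rich genes, shared another; both families encode proteins of the skin barrier, and their other genes started in no selected bin. The LCE3 bin had -1.29 in T0, 0.660 in T1, 1.48 in T4, 1.15 in T16, 1.82 in T24 and 4.47 in TamR. The SPRR bin had -0.03 in T0, 1.43 to 2.42 in the E2 libraries and 5.92 in TamR. The bin of PRAMEF2, PRAMEF4, PRAMEF7 and PRAMEF10, of a testis and tumour antigen family, had -0.57 in T0, 1.69 to 3.23 in the E2 libraries and 1.36 in TamR. The 4 PATE genes, expressed in prostate and testis, lay in 2 adjacent B→A bins with -0.76 and -0.19 in T0 and 0.0754 to 1.12 in the E2 libraries.

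Other genes were picked for their known roles after their values had been seen. Among A→B bins, that of HSD17B2, which oxidises estradiol to estrone, had 0.256 in T0, -0.52 in T1, -0.27 in T4, -0.69 in T16, -0.59 in T24 and 3.13 in TamR. The bin of HIF1A, the hypoxia response factor, had 0.0587 in T0, -1.39 to -0.33 in the E2 libraries and 2.80 in TamR. Both were in A in TamR as in T0. The bin of LGR4, a receptor for R-spondins in Wnt signalling, had 0.0279 in T0, -1.96 to -1.24 in the E2 libraries and -0.42 in TamR, and that of SIM1, a neural transcription factor, had 0.291 in T0, -1.98 to -0.47 in the E2 libraries and -2.35 in TamR.

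Among B→A bins, that of KDR, a receptor of vascular endothelial growth factor, had -0.64 in T0, 0.317 in T1, 0.512 in T4, 0.788 in T16, 0.125 in T24 and 0.958 in TamR. The bin of CENPE, a kinesin of the mitotic kinetochore, had -0.99 in T0, 0.304 to 0.890 in the E2 libraries and -2.51 in TamR. The bin of BRD7, a subunit of a chromatin remodelling complex, had -0.34 in T0, 0.192 to 0.617 in the E2 libraries and 0.302 in TamR, and that of ORC6, a subunit of the replication origin complex, had -0.38 in T0, 0.375 to 0.777 in the E2 libraries and -0.99 in TamR. Whether the transcripts of these genes moved with their bins was not tested.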

How the data were processed

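TCC contact maps of T47D cells were made by the authors with HindIII, mapped to hg19 and, per the methods, reduced with HiCLib to the first eigenvector of the 100 Kb contact matrix. The deposited values are that eigenvector score for each bin, with 0 where there was none, in 1 file per condition. Read counts, depth and the treatment of replicates are not given in the sources used here. Bins and gene lists were chosen with earlier results of these data known.

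Scores were multiplied by 1000 and read by sign, and all 22 autosomes were used. Compartments are runs of adjacent scored bins of one sign. Named regions are, per direction, the 6 longest runs and the 8 bins whose smallest absolute parental score was largest, with the protein-coding genes that start in them. Gene starts come from GENCODE lifted to GRCh37, and GC content, HindIII sites, EREs and promoters from the GRCh37 genome, whose chromosome lengths match hg19. Genes of 7 lists, written for estrogen biology, were counted. Scripts ran in Python 3.11.15 with pandas 2.3.3, scipy 1.17.1 and numpy 2.4.6, and the selection was tested on simulated tracks. Alternatives were the median as border, a filter of weak scores, chromosome X, each E2 library left out, a running median of 3 bins, bridged gaps, scaling by the SD, and genes of every type.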

Additional observations from a re-analysis of the deposited data

How the results depend on the processing

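Of 71 values under alternatives, 63 kept their size within the limits set and 8 moved. For counts the limit was wide, at 1.5 times: 299 A→B bins without T4, against 208 in the main setting, were among the values that kept their size. A filter that asked every library for an absolute score above its lowest 10% (limits of 0.919 to 0.955, with 20549 bins left) left 0 A→B and 0 B→A bins, so the other 7 results have no value under it: each bin had a score under the limit in at least 1 library. Without T24 in the rule, the B→A bins numbered 258 against 216 A→B bins, which turned the larger direction, and the step in the flanking bins was 0.429 in place of 0.562. Without T4 it was 0.623. A running median of 3 bins gave 67.7% of bins at a T0 border and a flanking step of 0.654. Counting genes of every type gave 204 starts per 100 bins, against 224 over all scored bins. No paired analysis was possible because there is 1 library per condition. Depth is unknown, and Wilson intervals treat bins as independent, which neighbours are not.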
